A study of Homo sapiens with 4 samples.

Results

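Intronic transcripts are long non-coding RNA genes that annotators placed inside an intron of another gene and named after that host, with the suffix -IT and a number. All genes of this name were taken from release 44 of the GENCODE annotation, lifted to the human build GRCh37, and were found by symbol alone. The table of values held 123 of their transcripts, among 19835 transcripts in all, and these summed to 117 genes among 11465 matched genes. The annotation names 131 such genes, and the other 14 had no row.

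RNA came from HUH7, an established human hepatocellular carcinoma line, kept in standard medium with serum and with no treatment or genetic change given in the labels. Total RNA was stripped of ribosomal RNA and made into 4 strand-specific libraries, called replicates 1 to 4, although the labels also call the molecule polyA RNA. The titles mark replicates 1 and 3 as Huh7-L and replicates 2 and 4 as Huh7-H without saying what the letters mean. Since every other label is the same, the 4 were treated as 1 group, and the letters were compared separately. Separate cultures are nowhere stated, so every error and p-value here covers the spread of 4 libraries and may hold technical spread alone. Values are FPKM, the fragments of a transcript scaled by its length and by all fragments that the library had on non-coding transcripts. The steps between low values gave about 4520000 to 5020000 fragments per library, an estimate under which 5 FPKM on a member of median length (534 nt) amounts to 10.3 to 11.4 fragments. The hepatoma RNA HULC reached 693 ± 64.8 FPKM (SD, n = 4) and the liver RNA LINC00261 377 ± 27.7 FPKM, while the liver RNAs FAM99A and FAM99B stayed at 0.237 ± 0.285 and 0.41 ± 0.0837 FPKM. MIR155HG of blood cells and MIR124-2HG of neurons were listed at 0, MIAT, the other neural marker with a row, stood at 3.16 ± 0.824 FPKM, and LINC00861 and LINC00881, fixed as blood and muscle markers, stood at 11.1 ± 1.12 and 30.7 ± 8.90 FPKM. The other fixed blood and muscle markers, MIR142HG and MIR133A1HG, stood at 0.035 ± 0.07 and 1.965 ± 3.13 FPKM. The other fixed liver markers, LINC01018 and H19, stood at 7.29 ± 1.12 and 5.925 ± 2.38 FPKM.

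Introns are transcribed with the rest of a gene and are usually cut out and degraded, while some intronic RNAs have their own start, processing and stability. Most introns hold copies of transposable elements such as Alu and LINE-1, which recur in very many genes. Of the 117 members, 116 lay on the strand of the host, all 117 lay within its span, and 112 lay wholly in an intron of a coding transcript of the host. The letters of these 112 are therefore also those of the unspliced host RNA, and fragments of host and member cannot be told apart in this table, which was made on non-coding transcripts. Of its 18373 rows matched to a transcript, 221 are annotated as protein-coding in the release used here, and none of these is a member.

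The intronic transcripts of HUH7 cells ranged from a listed value of 0 to 992 FPKM. Of the 117 genes, 36 (30.8%) were listed at 0 in all 4 libraries, 64 were above 0 in all 4, and 43 (36.8%) had a mean above 5 FPKM, the cutoff of the study for its screen. Of all 11465 matched genes, 34.6% had a mean above 5 FPKM, as did 57.8% of the divergent transcripts named -DT, 37.9% of the antisense genes named -AS and 32.1% of the intergenic genes named LINC. Among genes above that level, the median was 44.6 FPKM for the intronic transcripts and 33.8 FPKM for all matched genes. These are descriptions, and the shares were not tested against each other.

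Each gene was tested against 5 FPKM by limma with a moderated one-sample test on log2(FPKM + 1), two-sided, with Benjamini-Hochberg adjustment over 7124 genes with a mean of at least 0.1 FPKM. Of the 81 members tested, 39 (48.1%) were called above 5 FPKM, where 50.3% of all tested genes were, and 32 (39.5%) were called below, where 38.5% of all tested genes were. The remaining 10 could not be placed on either side. Both shares were near the background. Transcript by transcript, 40 of 84 members were called above, against a background of 41.9%, and 33 were called below, against a background of 43.3%.

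**Figure D1:**
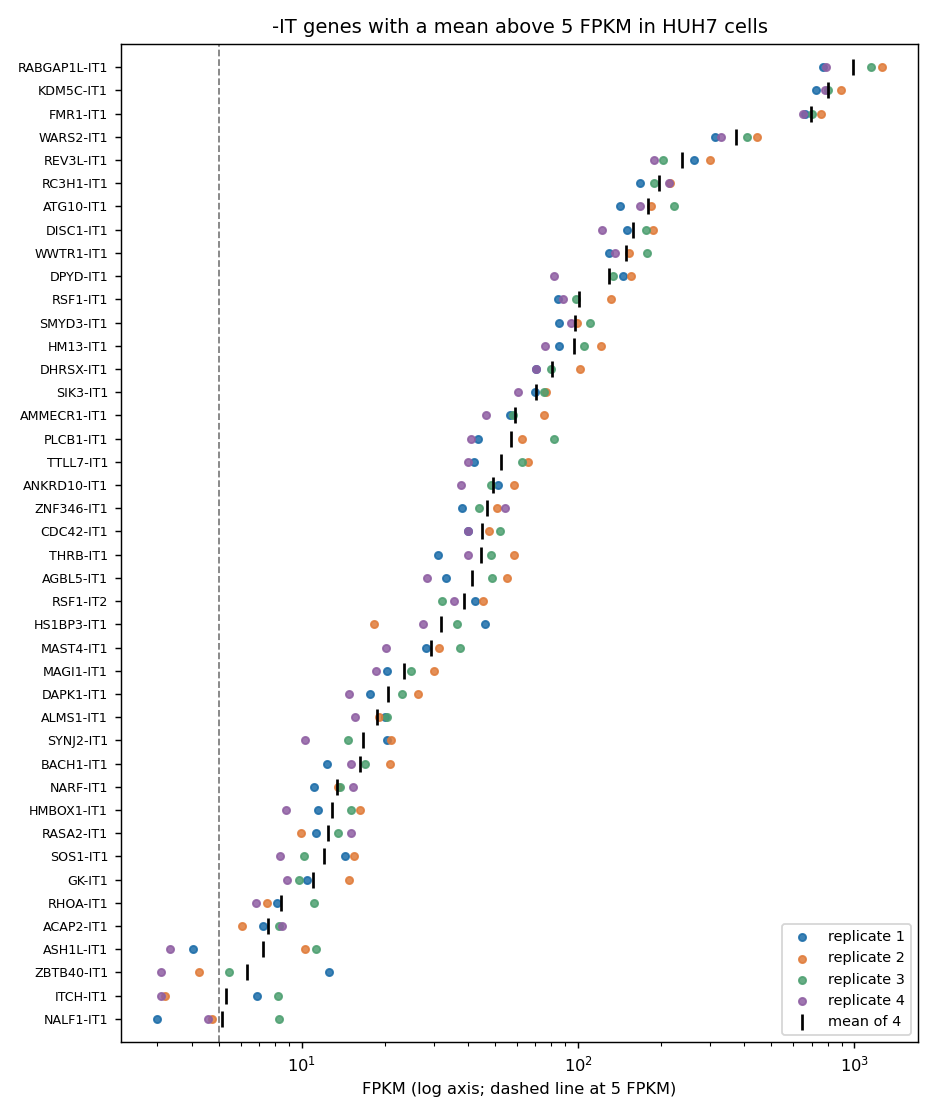
FPKM on a log axis of 42 of the 43 intronic transcripts with a mean above 5 FPKM (dashed line), with 1 point for each of the 4 libraries and a bar at the mean. Each member shown that was called above 5 FPKM had all 4 points right of the line, and the 4 at the bottom straddled it.

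A few members held most of the signal. The summed FPKM of all members was 4588, 6008, 5497 and 4489 in replicates 1 to 4, and the 3 highest members made up 48.4% and the 10 highest 76.1% of the summed mean. RABGAP1L-IT1, in the gene of a Rab GTPase-activating protein of endosomal traffic (chr1:174866095-174867133), had 769, 1261, 1152 and 786 FPKM in replicates 1 to 4. Replicates 2 and 3 were higher than replicates 1 and 4, and the mean was 992 ± 252 FPKM, 7.34 ± 0.12 (SE) above 5 FPKM on the log2 scale (limma adjusted p = 1.39e-16). Its host intron, intron 19 of 25, was 145495 nt long.

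KDM5C-IT1, in the gene of an X-linked histone demethylase (chrX:53241590-53243861), had 727, 896, 803 and 783 FPKM, a mean of 802 ± 70.5 FPKM. It began 0.009 kb after the start of intron 8 of 25. FMR1-IT1, in the gene of the RNA-binding protein lost in fragile X syndrome (chrX:147028461-147029103), had 664, 760, 704 and 654 FPKM, a mean of 695 ± 47.9 FPKM, and lay in the last of 16 introns. The spread of both over libraries was small beside their distance from 5 FPKM, with log2 differences of 7.06 ± 0.08 and 6.86 ± 0.08 (SE).

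WARS2-IT1, in the gene of the mitochondrial tryptophanyl-tRNA synthetase and with a model of another version than its row, was the only member on the strand opposite to its host, and had 313, 443, 410 and 330 FPKM (mean 374 ± 62.5). REV3L-IT1, in the gene of the catalytic subunit of DNA polymerase zeta, had 263, 300, 203 and 188 FPKM (mean 238 ± 52.4). RC3H1-IT1, in the gene of the mRNA-destabilising protein roquin-1, had 167, 216, 189 and 213 FPKM (mean 196 ± 22.9). All 3 were far above 5 FPKM in every library, and their ranges did not overlap those of the 3 highest members.

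Next in level stood ATG10-IT1, in the gene of a conjugating enzyme of autophagy (179 ± 33.8 FPKM), DISC1-IT1, in a scaffold gene named for schizophrenia (158 ± 28.7), and WWTR1-IT1, in the gene of the Hippo pathway coactivator TAZ (149 ± 21.4). DPYD-IT1, in the gene of the enzyme that begins pyrimidine breakdown, had 146, 155, 134 and 82.0 FPKM (mean 129 ± 32.6), with replicate 4 lowest. RSF1-IT1, in the gene of a chromatin remodelling subunit, had a mean of 100.7 ± 21.4 FPKM. Neighbours in this order overlapped in their libraries.

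Members from 40 to 100 FPKM numbered 12 and were all called above 5 FPKM. SMYD3-IT1, in the gene of a lysine methyltransferase, had 97.2 ± 10.3 FPKM, and HM13-IT1, in the gene of signal peptide peptidase, had 96.6 ± 20.01 FPKM. DHRSX-IT1 followed with 80.8 ± 14.8 FPKM and SIK3-IT1, in the gene of a salt-inducible kinase, with 70.5 ± 7.18 FPKM. AMMECR1-IT1 stood at 59.0 ± 11.9 FPKM, PLCB1-IT1 at 57.2 ± 18.99 FPKM, ANKRD10-IT1 at 49.0 ± 8.69 FPKM and ZNF346-IT1 at 46.7 ± 7.25 FPKM. CDC42-IT1, in the gene of the small GTPase of cell polarity, had 44.9 ± 6.01 FPKM, and THRB-IT1 had 44.6 ± 11.7 FPKM. TTLL7 encodes an enzyme that adds glutamate to tubulin, and AGBL5 encodes one that removes glutamate. AGBL4-IT1, in the gene of an enzyme related to AGBL5, was listed at 0 in all 4 libraries, but TTLL7-IT1 had 52.7 ± 13.5 FPKM and AGBL5-IT1 41.5 ± 12.6 FPKM.
Below them, RSF1-IT2 had 38.8 ± 5.92 FPKM and HS1BP3-IT1 32.03 ± 11.9 FPKM, the latter with 45.9, 18.2, 36.5 and 27.5 FPKM in replicates 1 to 4 and so the reverse of most members, since replicate 2 was its lowest library. MAST4-IT1, MAGI1-IT1 and DAPK1-IT1 lay between 20.5 and 29.3 FPKM, and DAPK1 encodes a kinase of cell death. ALMS1-IT1, SYNJ2-IT1, BACH1-IT1, NARF-IT1, HMBOX1-IT1, RASA2-IT1, SOS1-IT1 and GK-IT1 lay between 11.0 and 18.8 FPKM, with log2 differences from 5 FPKM of 0.97 to 1.71.

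The lowest members called above 5 FPKM were RHOA-IT1, in the gene of the small GTPase of stress fibres, and ACAP2-IT1, in the gene of an Arf GTPase-activating protein. RHOA-IT1 had 8.14, 7.50, 11.1 and 6.82 FPKM (log2 difference 0.63 ± 0.18 SE, limma adjusted p = 0.0048). ACAP2-IT1 had 7.25, 6.08, 8.30 and 8.46 FPKM (0.50 ± 0.18 SE, limma adjusted p = 0.018), and its call was lost without replicate 3 (adjusted p = 0.074) or replicate 4 (adjusted p = 0.066).

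The threshold itself ran through a group of members whose libraries fell on both sides. ZBTB40-IT1, with a mean of 6.34 ± 4.26 FPKM, had 12.6, 4.26, 5.45 and 3.08 FPKM and was raised by replicate 1. ITCH-IT1, in the gene of a ubiquitin ligase, had 6.87, 3.20, 8.19 and 3.08 FPKM. NALF1-IT1 had 2.99, 4.74, 8.28 and 4.58 FPKM, and ASH1L-IT1, named after its values were seen, had a mean of 7.22 ± 4.11 FPKM. None of these 4 was placed, although their means exceeded 5 FPKM.

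Just under the level, E2F3-IT1, in the gene of a cell cycle transcription factor, had 4.14, 10.9, 1.97 and 1.24 FPKM. ANKRD44-IT1 had 1.99, 8.36, 4.74 and 3.15 FPKM, and BRWD1-IT1 had 4.92, 3.20 and 5.53 FPKM in replicates 1 to 3 and was lowest in replicate 4. None of the 3 was placed either, and in E2F3-IT1 and ANKRD44-IT1 replicate 2 alone exceeded 5 FPKM. In all, 52 members exceeded 5 FPKM in at least 1 library and 39 in all 4.

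The libraries differed by more in the median intronic transcript than in the median of other genes of the same level. Members of 20 to 100 FPKM had a median coefficient of variation of 20.98% (n = 18), where 1553 other genes had 13.9%. Members above 100 FPKM had 18.1% (n = 11), where 958 other genes had 11.0%. From 5 to 20 FPKM the values were 25.3% and 23.2%. The difference was not tested.

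Part of this spread had the same direction in many members. Of the 43 with a mean above 5 FPKM, 26 (60.5%) were highest in replicate 2 and 25 (58.1%) lowest in replicate 4, where 53.2% and 43.2% of 3926 other genes were. The median deviation from a gene's own mean of log2(FPKM + 1) was -0.14, 0.25, 0.14 and -0.24 in replicates 1 to 4 for members and -0.06, 0.15, 0.03 and -0.11 for the other genes. After median-of-ratios scaling between libraries, members kept medians of -0.09, 0.10, 0.11 and -0.14, while those of the other genes were all within 0.01 of 0. The scaling sets the median over all transcripts, most of them of other genes, so the latter values are near 0 by construction. On either scale the median member was low in replicates 1 and 4 and high in replicates 2 and 3. This order cuts across the letters of the titles, since replicates 1 and 3 are Huh7-L and replicates 2 and 4 are Huh7-H.

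Huh7-H and Huh7-L, with 2 libraries each, were compared by limma over the same 7124 genes after the values above had been seen. Of the 81 members tested, 0 were called higher or lower, where 0.0% of all tested genes were called in either direction. An unadjusted limma p under 0.05 was found for 8 members (9.88%) and for 4.74% of all genes, shares that were not tested against each other. Apart from ITCH-IT1 and HS1BP3-IT1, these members were low, with means from 0.78 to 2.13 FPKM. AFF2-IT1, RNF216-IT1, ARHGEF38-IT1 and HLCS-IT1 were listed at 0 in both Huh7-L libraries, and CAMTA1-IT1 in both Huh7-H libraries, so their differences rest on few fragments. For the 43 members above 5 FPKM the log2 difference, Huh7-H minus Huh7-L, had a median of -0.02 and ran from -1.04 to 0.36, and 17 were higher in Huh7-H. ITCH-IT1 (-1.04 ± 0.36 SE, limma adjusted p = 0.91) and HS1BP3-IT1 (-0.84 ± 0.26 SE, limma adjusted p = 0.85) were lower in both Huh7-H libraries than in both Huh7-L libraries, and neither passed the test. With the letter as a term in the test against 5 FPKM, 39 members were again called above and 32 below.

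**Figure D2:**
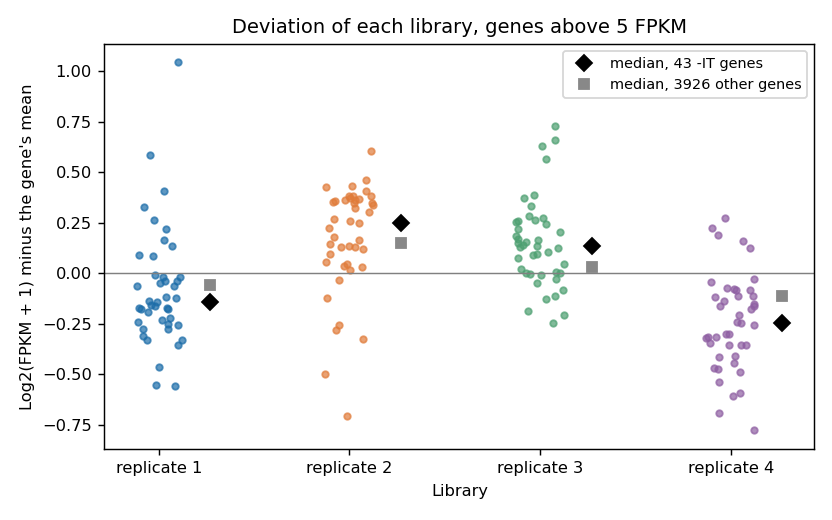
Deviation of log2(FPKM + 1) in each library from the gene's mean over 4 libraries, for the 43 intronic transcripts above 5 FPKM (small points), with their median (diamonds) and that of 3926 other genes above 5 FPKM (squares). The diamonds lie further from 0 than the squares in every library, at -0.14, 0.25, 0.14 and -0.24.

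The level of a member went with the share of its sequence that is repeated in the genome. This share is the percentage of 24-mers with at least 10 copies in GRCh37, counting both strands. It was measured on the lead transcript, the one of highest mean. Of the 15 members with more than 25% repeated sequence, all had a mean above 5 FPKM and all were called above it, at a median of 158 FPKM. Of the 13 members from 10 to 25%, all had a mean above 5 FPKM and 12 were called above, ASH1L-IT1 being the exception. Of the 23 members above 0 and up to 10%, 11 had a mean above 5 FPKM and 9 of 20 tested (45.0%) were called above. Of the 66 members with no repeated 24-mer, 33 were listed at 0, 4 had a mean above 5 FPKM, and 3 of 33 tested (9.09%) were called above.

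Other genes were ordered in the same way, with 531 of 2215, 1104 of 2651, 1276 of 1483 and 632 of 686 of those tested called above from the lowest to the highest class. The shares of members and other genes within a class were not tested against each other. Across the 81 tested members, Spearman's rank correlation between repeated percentage and mean FPKM was 0.81, and across 7035 other genes it was 0.61. All points share the same 4 libraries, and genes are not independent replicates, so these values are descriptions. Length (rank correlation 0.12), GC content (rank correlation -0.19) and length of the host (rank correlation -0.17) were weakly related to the mean over the same 81 members.

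**Figure D3:**
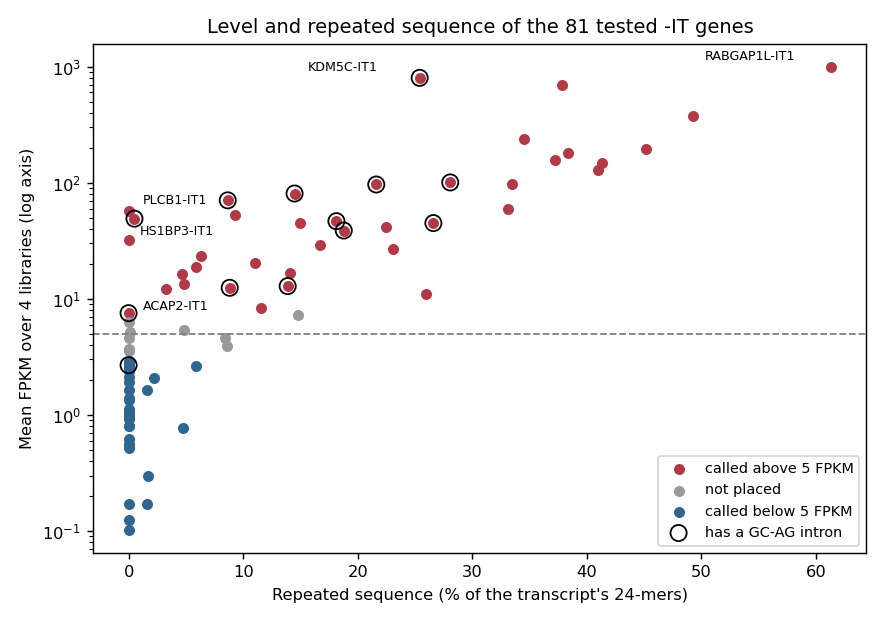
Mean FPKM on a log axis against the percentage of repeated 24-mers for the 81 tested intronic transcripts, coloured by their call against 5 FPKM (dashed line), with rings on those that hold an intron with the ends GC and AG. All 28 members above 10% lie above the line, and the members called below sit at or near 0%.

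**Figure D4:**
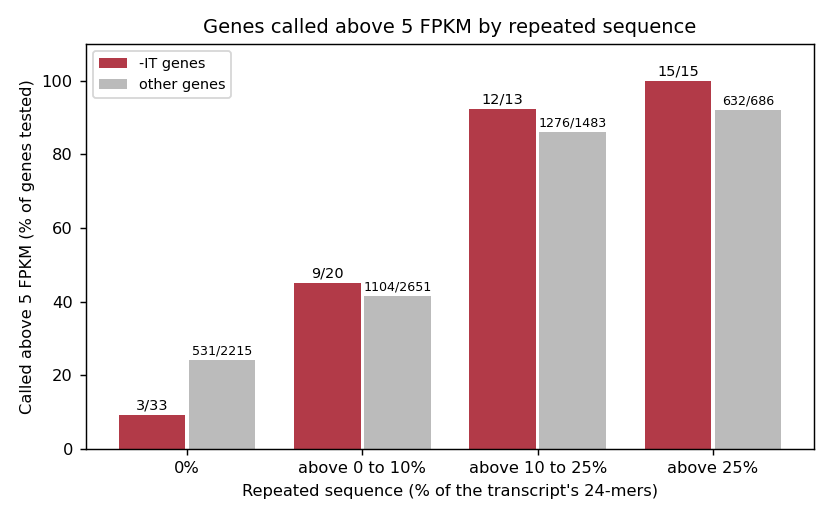
Percentage of tested genes called above 5 FPKM by class of repeated sequence, for intronic transcripts (dark bars) and other genes (grey bars), with the counts over each bar. The bars of the intronic transcripts rise from 9.09% to 100%.

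Some of the high members also matched transcripts of other loci outright. In sense alignments of 50 nt or longer with an identity of 95% or higher, 16 of 117 members shared sequence with an RNA of a coding or structural gene elsewhere in the genome, and 14 of these had a mean above 5 FPKM. Only members were aligned, so no share of other genes can be set beside these counts. RABGAP1L-IT1 shared 52.8% of its length, mostly with ORC4, a subunit of the origin recognition complex. FMR1-IT1 shared 41.1%, mostly with RASAL2, and DPYD-IT1 43.4%, mostly with OR10H1, an olfactory receptor gene. KDM5C-IT1 shared 14.97%, mostly with RN7SL250P, a copy of the signal recognition particle RNA. Since the reference was made of non-coding transcripts, a fragment of a coding RNA, such as that of ORC4, could be placed on the member. This reason does not apply to RN7SL250P, which is not coding. The part that shared sequence plays in the values was not tested.

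Members with little or no such sequence are given next, and whether any level depends on it was not tested. Of the 43 members with a mean above 5 FPKM, 15 had no shared sequence and under 10% repeated sequence. PLCB1-IT1, in the gene of a phospholipase C of G protein signalling (chr20:8229351-8237564), was the highest member without a repeated 24-mer in its lead transcript. It had 43.6, 62.4, 81.8 and 40.9 FPKM (mean 57.2 ± 18.99, log2 difference 3.22 ± 0.14 SE). These values sum 2 transcripts, of which the lead had a mean of 34.3 ± 10.2 FPKM. ANKRD10-IT1, with 0.515% repeated, had 51.5, 58.6, 48.4 and 37.7 FPKM (mean 49.0 ± 8.69). HS1BP3-IT1 and ACAP2-IT1, described above, also had no repeated 24-mer, as did ZBTB40-IT1, which was not placed. In the libraries of PLCB1-IT1, replicate 3 was highest and replicate 4 lowest, and all 4 exceeded 40 FPKM.

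The members have introns of their own in the annotation, and the ends of these were counted. Nearly all human introns begin with GT and end with AG, and a small minority begin with GC. Of 48 introns in the 43 members above 5 FPKM, 35 (72.9%) were GT-AG and 13 (27.1%), in 12 members, were GC-AG. Of 115 introns in the 74 members at or below 5 FPKM, 112 (97.4%) were GT-AG and 3 (2.61%) were GC-AG. In 5019 other transcripts above 5 FPKM, 3.37% of 11886 introns were GC-AG, and in those at or below 5 FPKM 2.52% of 29756 introns were. This count was chosen after the values were seen, and the shares were not tested.

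Of the 10 such introns in members above 20 FPKM, 9 start sites are printed next, with 10 exon bases, then the GC in capitals and 8 more intron bases, from GRCh37 in the direction of the transcript. They show what surrounds a GC start in these models.
KDM5C-IT1: aaagtttgagGCcgggcgcg
RSF1-IT1: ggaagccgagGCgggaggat
HM13-IT1: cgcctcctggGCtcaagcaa
DHRSX-IT1: taatgagaatGCgttatcca
SIK3-IT1, intron 2: aggactatagGCctgtgcca
ANKRD10-IT1: aaaaaaaatgGCtggacgca
ZNF346-IT1: gcccagccagGCatagtggc
CDC42-IT1: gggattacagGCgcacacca
RSF1-IT2: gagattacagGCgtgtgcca
Of the 16 GC starts in all members, 10 followed an exon ending in AG, and 2 began with GCAAG, in ARHGAP26-IT1 and HAO2-IT1, at 2.68 ± 2.72 FPKM and listed at 0. In members above 5 FPKM, 6 of the 13 windows of 20 bases occur at least 10 times in the genome, among them that of CDC42-IT1, 1373 times. Of the windows at the 35 GT-AG introns of these members, 12 (34.3%) occur as often, and of those at the 112 GT-AG introns of the lower members, 5 (4.5%) do. Of the 3 GC-AG introns of the lower members, 0 do, a number too small for a comparison. Reads across junctions were not analysed here.

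The 20 genomic bases after the annotated end held at least 10 A in 10 of the 43 members above 5 FPKM (23.3%) and in 5 of the 74 others (6.76%), where 12.0% and 6.79% of other transcripts above and at or below 5 FPKM did. The polyadenylation signal AATAAA stood in the last 50 bases of 7 (16.3%) and 28 (37.8%) members respectively, and of 32.5% and 33.4% of other transcripts. A match to these letters is not a used signal. THRB-IT1, in the gene of a thyroid hormone receptor, was followed by 20 A of 20 bases, GK-IT1 by 19, HMBOX1-IT1 by 18, and WWTR1-IT1 and HM13-IT1 by 17. KLHL22-IT1, listed at 0 in all 4 libraries, was also followed by 18.

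In structure the members were small. Of the 117 lead transcripts, 85 had 2 exons, 4 had 1 and 28 had 3 or more, with lengths from 109 to 3539 nt. Members with a mean above 5 FPKM sat in host introns with a median length of 31649 nt, 6.78 kb after the start of the intron, while those at or below it sat in introns of 86270 nt, 32.9 kb after the start. In the first intron of the host lay 10 of 42 placed members above 5 FPKM (23.8%) and 25 of 70 at or below (35.7%). Only 5 members shared a base with any exon of their host in the current annotation. SOS1-IT1 was the extreme case, with 539 bases on coding-transcript exons of SOS1, the exchange factor that activates Ras, so that its 12.05 ± 3.34 FPKM cannot be told apart from that of this host isoform.

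Hosts were sorted into 7 classes by their known roles, from lists written from symbols alone and far from complete, since 72 of the 117 members had a host on none of them. Of the 15 members in genes of ion channels, synapses and neuronal adhesion, 9 were listed at 0, 5 were called below 5 FPKM, and MAGI1-IT1, in the gene of a scaffold of cell junctions, was called above. Its values were 20.4, 30.2, 24.9 and 18.6 FPKM, but 212 of its bases lie on an exon of a host isoform not annotated as coding. CACNA1C-IT1 and CACNA1C-IT3, in the gene of a cardiac and neuronal calcium channel, KCND3-IT1 and KCNH1-IT1, in genes of potassium channels, and FGF14-IT1 were among those at 0. The list of this class is inexact. It held MACROD2, the gene of a hydrolase of ADP-ribose, whose member was called below. It left out the neuronal adhesion genes DSCAM and NEGR1, whose members were listed at 0. Among all 117 members 36 were at 0, 39 (33.3%) were called above and 32 (27.4%) below. No class was tested against the others, and most are too small for their counts to be set apart from these shares.

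Of the 6 members listed in genes of kinases, phosphatases and second messengers, 4 were called above (among them PLCB1-IT1, MAST4-IT1 and DAPK1-IT1), all 4 from 20.5 to 57.2 FPKM, and 2, ITPKB-IT1 and PPP2R2B-IT1, were listed at 0. The kinase genes SIK3, GRK5 and RPS6KA2 were on no list, so their members are outside this count. SIK3-IT1 was called above, GRK5-IT1 was not placed and RPS6KA2-IT1 was called below. Of the 9 in regulators of small GTPases, RABGAP1L-IT1, RASA2-IT1 and SOS1-IT1 were called above, 4 were called below and 2 were at 0. Of the 7 listed in transcription and chromatin genes, SMYD3-IT1 (97.2 ± 10.3 FPKM), THRB-IT1 (44.6 ± 11.7) and BACH1-IT1 (16.3 ± 3.62) were called above, 3 were called below and BRWD1-IT1 was not placed. KDM5C, RSF1 and E2F3 were among the hosts on no list. KDM5C-IT1, RSF1-IT1 and RSF1-IT2, all called above, and E2F3-IT1, not placed, are therefore outside this count. In genes of metabolism and liver proteins, DPYD-IT1 was high and HAO2-IT1, in the gene of a peroxisomal hydroxyacid oxidase, was at 0. Of the 4 listed members in RNA, repair and ubiquitin genes none was called above, ITCH-IT1 being highest at 5.34 FPKM. Of the 2 in cytoskeleton and matrix genes GPC5-IT1 was called below. These counts cover listed hosts only. FMR1, WARS2, REV3L and RC3H1, whose roles are given above, were on no list, and their members were all called above 5 FPKM. Of the 72 members with a host on no list, 27 were called above and 17 below.

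**Figure D5:**
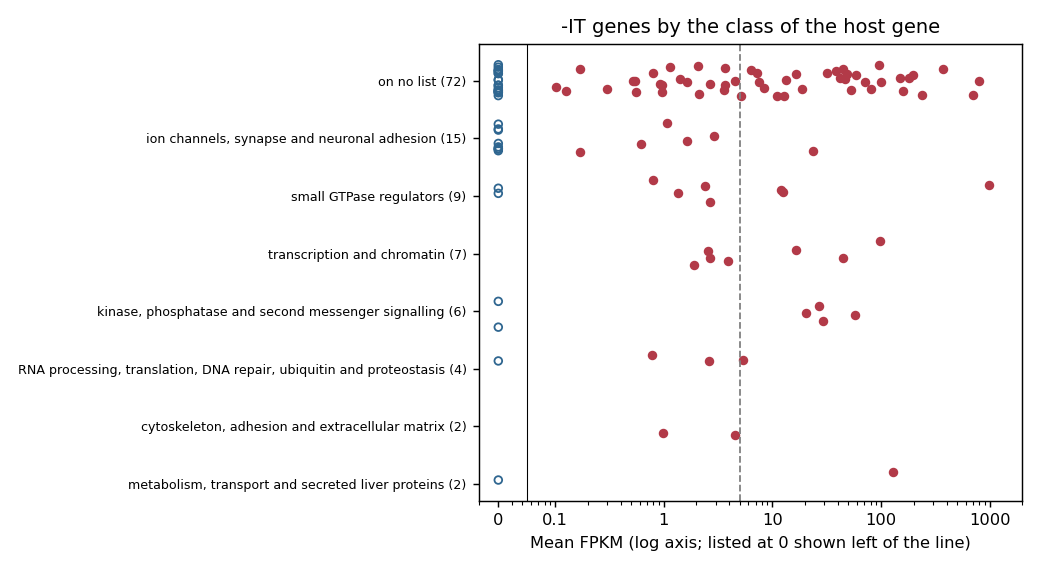
Mean FPKM on a log axis of each of the 117 intronic transcripts, in rows by the class of the host gene with the number of members in parentheses. Open points left of the line are members listed at 0, and the dashed line is 5 FPKM. The row of ion channel and synapse genes holds 9 of its 15 points at 0 and 1 right of the dashed line.

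Of the 6 hosts with more than 1 member, 2 (ATP2B2 and CACNA1C) had every member listed at 0. The pairs in RSF1 and BACH1 were compared over libraries, and none could pass an exact test with 4. In RSF1, IT1 had 84.4, 131, 98.3 and 88.4 FPKM and IT2, an intron further on, had 42.3, 45.1, 32.3 and 35.5 FPKM. IT1 was higher in all 4 libraries, by 1.34 ± 0.27 on the log2 scale (SD, n = 4, exact two-sided sign-flip permutation p = 0.125, the smallest that 4 libraries allow, and 0.156 adjusted over 5 pairs). In BACH1, the gene of a heme-responsive repressor of transcription, IT1 exceeded IT2 by 2.23 ± 0.24 and IT3 by 2.92 ± 0.94, each in 4 of 4 libraries, with the same exact p of 0.125. BACH1-IT2 had 2.68 ± 0.738 FPKM and BACH1-IT3 1.91 ± 2.57 FPKM, and the former was higher in 3 of 4 libraries (0.69 ± 0.98, exact permutation p = 0.375). BACH1-IT3 rested on replicate 2, with 0.68, 5.68, 1.29 and 0 FPKM.

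Only 2 members had more than 1 transcript above 0. PLCB1-IT1 was the sum of 2, of 373 and 251 nt, at 34.3 ± 10.2 and 22.9 ± 8.99 FPKM, and the longer was higher in all 4 libraries, by 0.60 ± 0.21 on the log2 scale (exact permutation p = 0.125). NRG1-IT1, in the gene of a ligand of ErbB receptors, was the sum of 3 transcripts, each at 0 in at least 1 library, and its total of 0.33, 1.94, 1.98 and 0 FPKM was called below 5 FPKM.

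Other non-coding rows of the same hosts gave their own levels. A non-coding isoform of STARD13 had 23.1 ± 4.02 FPKM while STARD13-IT1 had 2.41 ± 0.915 FPKM. In ARHGEF38 the non-coding isoforms had 77.4 ± 11.4 and 25.5 ± 7.68 FPKM and the intronic transcript 0.798 ± 1.25 FPKM. In HMBOX1, a homeobox gene, the non-coding isoform had 27.5 ± 11.9 FPKM and HMBOX1-IT1 12.9 ± 3.39 FPKM. On the opposite strand, NARF-AS1 had 163 ± 16.1 FPKM against 13.4 ± 1.78 FPKM for NARF-IT1, ITCH-AS1 47.5 ± 15.8 FPKM against 5.34 ± 2.59 FPKM, and AGBL5-AS1 0.152 ± 0.305 FPKM against 41.5 ± 12.6 FPKM. A host could therefore hold a high intronic transcript beside a low antisense gene, and the reverse. Repeated 24-mers made up 42.3% of NARF-AS1 and 34.8% of ITCH-AS1, but 4.83% of NARF-IT1 and 4.86% of ITCH-IT1. They made up 0% of AGBL5-AS1 and 22.5% of AGBL5-IT1. In ARHGEF38 the isoforms had 17.0% and 12.1% and the intronic transcript 0%. Both STARD13 rows had 0%, and the higher HMBOX1 isoform had 0% against 13.9% for HMBOX1-IT1. Whether these differences in level depend on repeats was not tested. The strand setting of the read placement is not given in the sources used here.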

How the data were processed

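RNA of HUH7 cells was measured in 4 libraries, taken as 1 group, and no sample was left out. The authors aligned reads with Bowtie 1.01 to non-coding transcripts of an Ensembl annotation (hg19, which is GRCh37) and deposited FPKM values made with RSEM 1.2.3, which divides fragments with several matches by estimation. Fold differences on log2(FPKM + 1) understate those of low genes. Identifiers were matched without version to GENCODE release 44 on GRCh37, 105 of 117 lead transcripts with the same version. Genes were sums of their transcripts. The one-sample test used limma 3.58.1 in R 4.3.3, with a mean-variance trend, a threshold of 0.05 and a check on simulated data. Sequence matches used blastn 2.17.0, and 24-mers were counted over the whole genome. Depth was estimated from whole-fragment steps of low values, with an effective length of the length minus 80 nt, at which 66.3% to 67.4% of the low values were whole to within 0.05. No count test was run.

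The members, host lists and tests were chosen with earlier results of these data known. Named with values were the 20 highest members, every member called above 5 FPKM, the 3 nearest on each side of it, members with more than 1 transcript above 0, and members whose host has another above 0. ASH1L-IT1, STARD13-IT1, ARHGEF38-IT1 and ARHGAP26-IT1, members listed at 0 and any other member outside these rules were named after their values were seen. Huh7-H was compared with Huh7-L by limma, also after the values were seen. Other settings were pseudocount, filter, threshold, scaling, trend, version, gene value and each library left out. An intronic transcript and some sequences are not reported here.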

Additional observations from a re-analysis of the deposited data

How the results depend on the processing

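The counts were 39 members called above and 32 called below 5 FPKM by limma, 40 and 33 transcripts, and 43 members with a mean above 5 FPKM. They stayed within 1.5 times of these values under a pseudocount of 0.1, no filter, both scalings, no trend, the letter of the titles as a term (chosen after seeing the data), the highest transcript of a gene, the same version only, a threshold of 10 FPKM and, for the means, every library above 5 FPKM. At a threshold of 1 FPKM, 5 members and 7 transcripts were called below and 65 members had a higher mean. Leaving out each replicate gave 38 to 39 members called above and 29 to 32 below, 38 to 40 transcripts above and 27 to 31 below, and 42 to 45 members with a mean above 5 FPKM.

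Of 618 values of named members tested against 5 FPKM under these settings, 609 kept direction and call. The log2 difference changed sign with a replicate left out in 4 members that were not placed: it ranged from -0.21 (without replicate 1) to 0.36 in ZBTB40-IT1, from -0.23 to 0.16 in ITCH-IT1 (0.15 without replicate 2, 0.16 without replicate 4), from -0.25 to 0.15 in NALF1-IT1 (0.15 without replicate 1) and from -0.53 to 0.015 in ANKRD44-IT1 (without replicate 1). ACAP2-IT1 lost its call without replicate 3 or replicate 4, ARHGAP26-IT1 lost its call below without replicate 3 (limma adjusted p = 0.062), and E2F3-IT1 was called below without replicate 2 (limma adjusted p = 0.018). At 10 FPKM the sign turned for RHOA-IT1 (-0.25), ACAP2-IT1 (-0.38), ASH1L-IT1 (-0.57) and ZBTB40-IT1 (-0.74). At 1 FPKM it turned for ITCH-IT1 (1.57), NALF1-IT1 (1.55), E2F3-IT1 (1.17), ANKRD44-IT1 (1.35), BRWD1-IT1 (1.22), ARHGAP26-IT1 (0.63), BACH1-IT2 (0.86), STARD13-IT1 (0.73) and BACH1-IT3 (0.17). These follow from moving the threshold past their level. No paired analysis was possible because Huh7-L (replicates 1 and 3) and Huh7-H (replicates 2 and 4) share no replicate number. The comparison of the letters, chosen after seeing the data, called 0 members under a pseudocount of 0.1 and both scalings. An unadjusted limma p under 0.05 was found there for 8 to 10 members (9.88% to 12.5%) and for 4.04% to 5.86% of all genes. With a replicate left out, 1 letter kept 1 library, and the median log2 difference of members ran from -0.252 to 0.281.

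Depth limits the low members most, since 5 FPKM rests on about 10.3 to 11.4 estimated fragments at the median length, and intervals or floors were not computed from estimated depths.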
